A study of Saccharomyces cerevisiae with 12 samples.

Results

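The PMT genes of Saccharomyces cerevisiae encode the protein O-mannosyltransferases, membrane proteins of the endoplasmic reticulum (ER) that move mannose from the lipid donor dolichyl phosphate mannose onto serine and threonine residues of proteins entering the secretory pathway. The genes described are PMT1 (YDL095W), PMT2 (YAL023C), PMT3 (YOR321W), PMT4 (YJR143C), PMT5 (YDL093W), and PMT6 (YGR199W). They were chosen by gene symbol. Each has 1 array element, so that 6 of the 6024 elements of the table are at issue, and all 6 have a value on every array. The transferases work as dimers. Pmt1p and Pmt2p form the main pair, Pmt3p and Pmt5p form alternative pairs with members of these subfamilies, and Pmt4p pairs with itself and acts on membrane-anchored proteins. The role of Pmt6p is less well defined. Secretory proteins such as those of the cell wall carry O-linked mannose, and so do ER proteins that fail to fold.

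Cells of 4 strains, Δire1, Δgcn4, Δgcn2, and WT, were exposed for 30 min to dithiothreitol (DTT), a reducing agent that disturbs protein folding in the ER, and mRNA of treated cells was hybridized against mRNA of untreated cells of its own strain on 3 two-color spotted arrays per strain. IRE1 encodes the ER sensor of the unfolded protein response (UPR), GCN4 a transcription factor known from amino acid starvation, and GCN2 the kinase that raises translation of GCN4. According to the methods, the strains share a MATa auxotrophic background, with IRE1 replaced by TRP1 and with GCN4 or GCN2 replaced by his5+, they were grown in YPD to midlog phase, and treated cells received 2 mM DTT, the measurements being averages of 3 independent experiments. Every value below is the deposited log2 ratio of treated over untreated cells, or a difference between strains in that ratio, so that the level of a gene in untreated cells is not among the measurements and levels of different genes are not compared. A gene is called higher or lower where limma gave a Benjamini-Hochberg adjusted p under 0.05, with adjustment over all 6024 elements.

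The arrays of a strain correlated with each other between 0.642 and 0.846 in Δire1, 0.729 and 0.906 in Δgcn4, 0.932 and 0.943 in Δgcn2, and 0.853 and 0.876 in WT, over all elements, which are not independent replicates. Array medians were below 0 throughout, between −0.205 and −0.056, and centering each array on its median would raise the response of every gene by 0.11 to 0.16 on average per strain. Such centering moves the shares of elements called in a single strain, in WT to 27.6% higher and 28.4% lower. Because a ratio compares treated with untreated cells of one strain, the ratio of a deleted gene does not check the label. KAR2, which encodes the major ER chaperone, averaged 0.85 in Δire1, 1.69 in Δgcn4, and 1.82 in Δgcn2, against 1.96 in WT. ERO1, which encodes a redox protein of the ER, averaged 0.37, 1.10, and 1.30 in the same order, against 1.96 in WT. Against WT, KAR2 was called lower in Δire1 alone (adjusted p = 0.00013, 0.40, and 0.56). ERO1 was called lower in all 3 deletion strains, by −1.59, −0.85, and −0.65 (adjusted p = 2.1e-06, 0.0014, and 0.0049).

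In WT cells, 4 of the 6 PMT genes were higher after DTT and none was lower, against 18.4% of all elements called higher and 39% called lower. The median of the 6 genes was 1.06, against −0.15 for all elements. PMT3 had the highest ratio, with 1.63, 1.91, and 1.98 on the 3 WT arrays, a mean of 1.84 ± 0.19 (SD, n = 3) or 3.58-fold, and it ranked 22 among the 6024 elements (adjusted p = 6.6e-07). PMT2 had 1.10, 1.26, and 1.25, a mean of 1.20 ± 0.088 or 2.3-fold (adjusted p = 2.6e-07). PMT1 had 1.03, 0.94, and 1.44, a mean of 1.14 ± 0.26 or 2.2-fold (adjusted p = 8.4e-07). Both genes of the main Pmt1p-Pmt2p pair thus lay above 0.9 on every WT array. PMT5 had 0.91, 0.95, and 1.11, a mean of 0.99 ± 0.10 or 1.99-fold (adjusted p = 2.4e-06). The WT arrays of PMT1 overlapped those of PMT2 and of PMT5, PMT2 was higher than PMT5 on each of the 3 arrays, and the lowest PMT3 array was above the highest array of each of them.

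PMT4 and PMT6 were apart from these 4 genes in WT. PMT4 had −0.00, −0.38, and −0.32, a mean of −0.23 ± 0.20 (95% confidence interval −0.45 to −0.02, adjusted p = 0.059), and its 3 arrays fell below every WT array of PMT1, PMT2, PMT3, and PMT5. Without WT replicate 1, the array near 0, the PMT4 value was −0.35 (adjusted p = 0.023). PMT6 had 0.14, −0.02, and 0.37, a mean of 0.16 ± 0.19 (95% confidence interval −0.09 to 0.42, adjusted p = 0.26). The centering of the arrays matters for both. Centered, PMT4 was at −0.09 (adjusted p = 0.49) and PMT6 at 0.31 (adjusted p = 0.027), so that PMT6 is called higher in WT on one scale and not on the other.

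**Figure D1:**
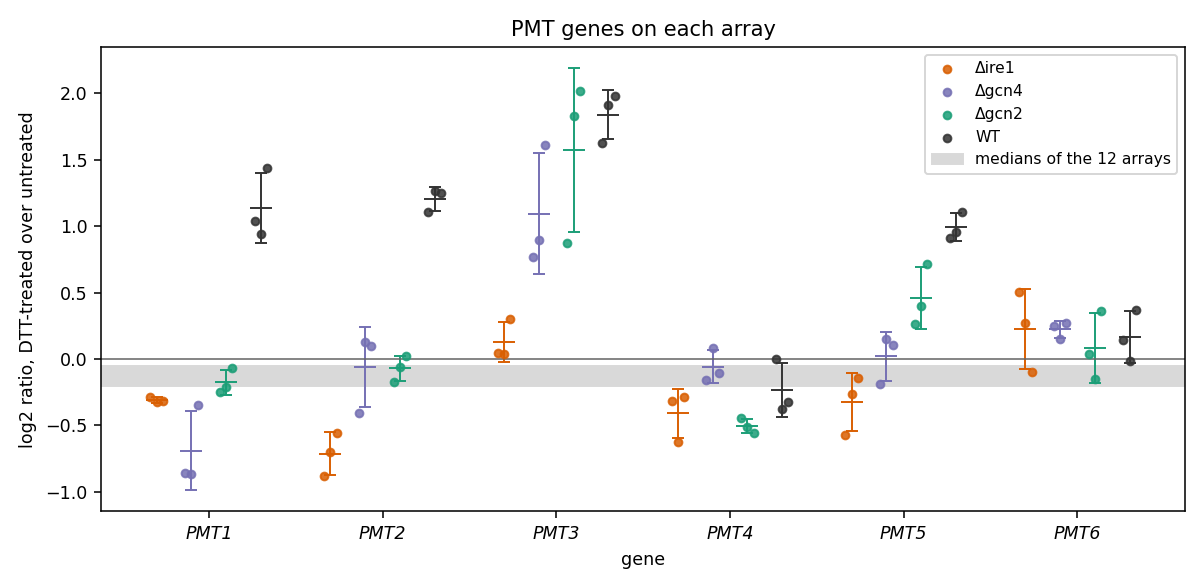
Response to DTT, as log2 of treated over untreated (vertical axis), for each PMT gene (horizontal axis) on the 3 arrays of each strain, with points for arrays, horizontal ticks for means, and bars for 1 SD; the grey band spans the medians of the 12 arrays. PMT1, PMT2, and PMT5 lie above every deletion-strain array in WT, PMT3 lies above 0.76 on every Δgcn4 and Δgcn2 array, and PMT4 and PMT6 stay between −0.62 and 0.50 in all strains.

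The Δire1 strain asks how much of the response goes through the UPR sensor. There, PMT1, PMT2, PMT4, and PMT5 were lower after DTT, 4 of 6, against 35.6% of all elements called lower, and none was higher, against 12.2%. The median of the 6 genes was −0.32, against −0.14 for all elements. PMT2 was lowest, with −0.88, −0.70, and −0.56 on the 3 Δire1 arrays, a mean of −0.71 ± 0.16 (adjusted p = 8.6e-05). PMT4 averaged −0.41 ± 0.19 (adjusted p = 0.0037), PMT5 −0.32 ± 0.22 (adjusted p = 0.026), and PMT1 −0.31 ± 0.022 (adjusted p = 0.038). Of these 4 calls, that of PMT2 alone held in all alternative fits and with each array left out. Centered arrays gave −0.17 for PMT1 (adjusted p = 0.22) and −0.18 for PMT5 (adjusted p = 0.19), with 21.9% of all elements called higher and 23.2% lower. PMT6, at 0.50, 0.27, and −0.10 on the 3 Δire1 arrays (adjusted p = 0.14), was called higher on that scale (0.37, adjusted p = 0.014), as it was with centering and scaling (0.42, adjusted p = 0.0058), with array weights (0.30, adjusted p = 0.044), and without Δire1 replicate 3 (0.39, adjusted p = 0.027). PMT1 was no longer called when any 1 of the Δire1 arrays was left out (adjusted p of 0.099, 0.12, and 0.097 without replicates 1, 2, and 3). PMT5 was no longer called without Δire1 replicate 1 (−0.20, adjusted p = 0.24) or 2 (−0.36, adjusted p = 0.060), and PMT4 was not called without replicate 2 (−0.30, adjusted p = 0.059).

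Set against WT, the response in Δire1 was lower for PMT1, PMT2, PMT3, and PMT5, the 4 genes that were higher in WT. Of all elements, 11.3% were lower and 10.9% higher in this comparison. The 3 comparisons with WT share the WT arrays, so that they are not independent of each other and each is given with its own values. PMT2 differed most, by −1.92 (95% confidence interval −2.25 to −1.59, adjusted p = 1.9e-06). PMT3 had 0.05, 0.04, and 0.30 on the Δire1 arrays, a mean of 0.13 ± 0.15, and differed from WT by −1.71 (−2.26 to −1.16, adjusted p = 0.00038). PMT1 had −0.28, −0.32, and −0.32 and differed by −1.44 (−1.79 to −1.10, adjusted p = 3.5e-05). PMT5 had −0.57, −0.26, and −0.14 and differed by −1.31 (−1.65 to −0.98, adjusted p = 5.5e-05). For each of these 4 genes, every Δire1 array was lower than every WT array, which was so for 17.2% of all elements, and the nearest arrays of the strains were 1.05 to 1.66 apart. PMT4 differed by −0.17 (−0.48 to 0.13, adjusted p = 0.41) and PMT6 by 0.06 (−0.31 to 0.43, adjusted p = 0.83), and for both the arrays of the strains overlapped.

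In Δgcn4, PMT3 and PMT1 moved in opposite directions. PMT3 was higher after DTT, with 0.77, 0.90, and 1.61 on the 3 Δgcn4 arrays, a mean of 1.09 ± 0.45 or 2.13-fold (adjusted p = 0.00014). PMT1 was lower, with −0.86, −0.86, and −0.34, a mean of −0.69 ± 0.30 (adjusted p = 0.00014). These were the only calls among the 6 genes, against 15.8% of elements called higher and 38.7% called lower. PMT2, at −0.06 ± 0.30 with arrays at −0.41, 0.13, and 0.10, and PMT5, at 0.02 ± 0.18 with arrays at −0.19, 0.15, and 0.10, lay on both sides of 0. PMT4 averaged −0.06 ± 0.13 and PMT6 0.22 ± 0.064 (adjusted p = 0.65 and 0.13). Centered, PMT6 was at 0.38 (adjusted p = 0.0093).

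In Δgcn4 minus WT, few elements passed the test, 1.94% lower and 0.863% higher, and PMT1, PMT2, and PMT5 were among the lower ones. PMT1 differed by −1.82 (−2.17 to −1.48, adjusted p = 1.8e-05), the second lowest of the 6024 differences. PMT2 differed by −1.26 (−1.59 to −0.94, adjusted p = 0.00022) and PMT5 by −0.97 (−1.31 to −0.63, adjusted p = 0.0022). For these 3 genes the arrays of the strains did not overlap, and the gaps were 0.76 to 1.28, whereas 9.94% of all elements had every Δgcn4 array below every WT array. PMT3 differed by −0.75 (−1.30 to −0.19), which did not pass (adjusted p = 0.16), and its highest Δgcn4 array was 0.02 below its lowest WT array. That call depended on the fit, as PMT3 passed with the replicate number as a block (adjusted p = 0.042) and with p adjusted jointly over the 10 comparisons (adjusted p = 0.036). PMT4 differed by 0.18 (−0.13 to 0.48, adjusted p = 0.61) and PMT6 by 0.06 (−0.31 to 0.42, adjusted p = 0.91).

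In Δgcn2, PMT3 and PMT5 were higher and PMT4 was lower after DTT, against 25.2% of elements called higher and 37.8% called lower. PMT3 had 0.87, 1.82, and 2.02 on the 3 Δgcn2 arrays, a mean of 1.57 ± 0.62 or 2.97-fold (adjusted p = 2.5e-06). This was the widest spread of any PMT gene in any strain, with replicate 1 about 1 log2 unit below the other arrays. PMT5 had 0.27, 0.40, and 0.72, a mean of 0.46 ± 0.23 or 1.38-fold (adjusted p = 0.0021). PMT4 had −0.45, −0.51, and −0.56, a mean of −0.50 ± 0.055 (adjusted p = 0.00046). PMT1, with −0.25, −0.21, and −0.07 (adjusted p = 0.19), PMT2, with −0.17, −0.06, and 0.02 (adjusted p = 0.59), and PMT6, with 0.04, −0.15, and 0.36 (adjusted p = 0.57), did not pass.

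Relative to WT, the Δgcn2 response was lower for PMT1, PMT2, and PMT5, against 6.24% of elements called lower and 10.9% called higher. PMT1 differed by −1.31 (−1.66 to −0.96, adjusted p = 0.00025) and PMT2 by −1.27 (−1.60 to −0.95, adjusted p = 0.00022), with more than 1 log2 unit between the nearest arrays of the strains. PMT5 differed by −0.53 (−0.87 to −0.19, adjusted p = 0.033). In the fit without a block, the call for PMT5 was lost without Δgcn2 replicate 1 (−0.43, adjusted p = 0.13) or 2 (−0.50, adjusted p = 0.10) and without WT replicate 1 (−0.57, adjusted p = 0.070), 2 (−0.55, adjusted p = 0.061), or 3 (−0.47, adjusted p = 0.092). PMT3 differed by −0.27 (−0.82 to 0.29, adjusted p = 0.51), an interval that includes both no difference and a difference of the size seen for PMT5. PMT4 differed by −0.27 (−0.57 to 0.04, adjusted p = 0.21), although its highest Δgcn2 array lay 0.07 below its lowest WT array. Every Δgcn2 array lay below every WT array for 15.4% of all elements. PMT6 differed by −0.08 (−0.45 to 0.28, adjusted p = 0.78).

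Arrays of WT and Δgcn2 with the same replicate number varied together, and the number was therefore also fitted as a block on these 6 arrays, an alternative chosen after seeing the data. With the block, PMT3 (−0.27, adjusted p = 0.023) and PMT4 (−0.27, adjusted p = 0.023) were called lower as well and PMT5 remained so (−0.53, adjusted p = 2.9e-06), so that 5 of 6 genes passed, but 30.5% of all elements were then called higher and 19.8% lower. This fit gave all elements the same spread, and for PMT3 that spread of 0.128 stood in for its own of 0.304, whereas PMT4 had one of 0.113, close to the common value. By number, PMT3 in Δgcn2 minus WT was −0.76, −0.09, and 0.04, and PMT4 was −0.44, −0.13, and −0.23. PMT5 was −0.64, −0.56, and −0.39. PMT4 and PMT5 were thus lower in Δgcn2 in 3 of 3 numbered pairs and PMT3 in 2 of 3. The share of all elements lower in 3 of 3 pairs was not computed.

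**Figure D2:**
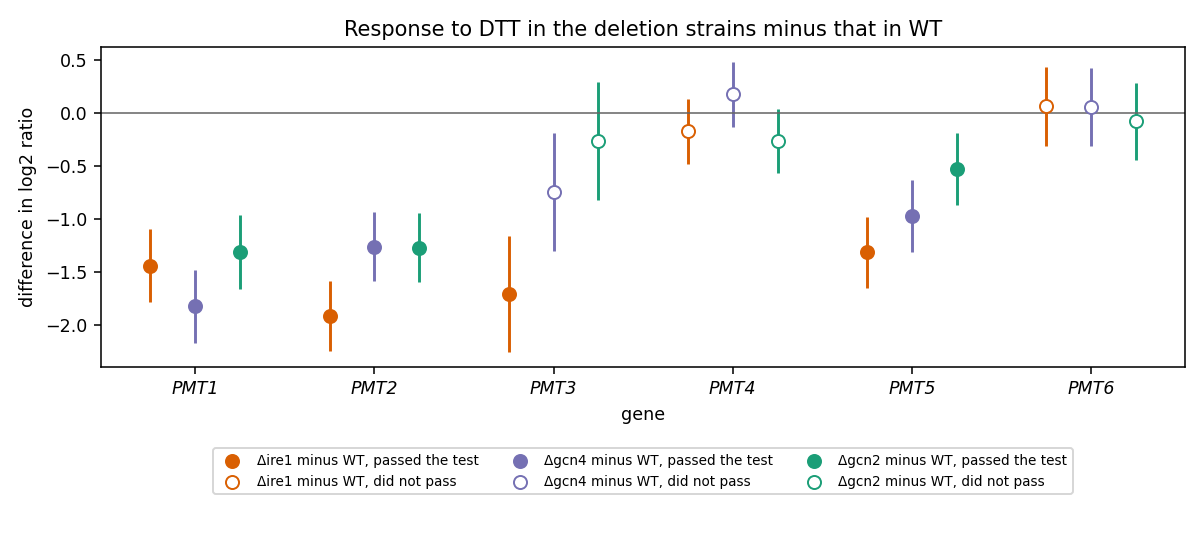
Difference between each deletion strain and WT in the response to DTT, as log2 of treated over untreated (vertical axis), for each PMT gene (horizontal axis), with 95% confidence intervals from the fit to all 12 arrays; filled points have an adjusted p under 0.05. PMT1 and PMT2 are below −1.2 in all 3 strains, PMT3 is at −1.71 in Δire1, −0.75 in Δgcn4, and −0.27 in Δgcn2, and the intervals of PMT4 and PMT6 cross 0.

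The deletion strains were also compared with each other. In Δire1 minus Δgcn4, PMT2 (−0.65, −0.98 to −0.32, adjusted p = 0.0066) and PMT3 (−0.96, −1.52 to −0.41, adjusted p = 0.014) were lower, against 12.8% of elements. The call for PMT3 was lost without Δgcn4 replicate 3, its highest array in that strain (−0.70, adjusted p = 0.077). PMT1 ran the other way, with a difference of 0.38 (0.03 to 0.73) that did not pass (adjusted p = 0.10), but did so without Δgcn4 replicate 3 (0.55, adjusted p = 0.032). In Δire1 minus Δgcn2, PMT2 (−0.64, −0.97 to −0.32, adjusted p = 0.0049), PMT3 (−1.44, −2.00 to −0.89, adjusted p = 7e-04), and PMT5 (−0.78, −1.12 to −0.45, adjusted p = 0.0016) were lower, against 21% of elements. PMT1 differed there by −0.13 (−0.48 to 0.22, adjusted p = 0.56), so that a difference of 0.5 in either direction lies outside its interval.

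Between Δgcn4 and Δgcn2, no PMT gene passed the test, against 6.32% of elements called in either direction, while 3 had an unadjusted p under 0.05. These were PMT1 (Δgcn4 minus Δgcn2 −0.51, −0.86 to −0.16, adjusted p = 0.075), PMT4 (0.44, 0.14 to 0.75, adjusted p = 0.076), and PMT5 (−0.44, −0.78 to −0.10, adjusted p = 0.11), and for each the arrays of the strains did not overlap. Of all elements, 11.2% lay higher on every Δgcn4 array than on any Δgcn2 array and 20.2% lower. PMT2 had nearly the same mean in both strains, with a difference of 0.01 (−0.32 to 0.34, adjusted p = 0.98). PMT3 differed by −0.48 (−1.03 to 0.07, adjusted p = 0.28) and PMT6 by 0.14 (−0.23 to 0.51, adjusted p = 0.67).

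The order of the strains was therefore not the same for every gene. WT had the highest mean of PMT1, PMT2, PMT3, and PMT5. For PMT3 and PMT5, the means increased in the order Δire1, Δgcn4, Δgcn2, WT. For PMT3, Δire1 differed from Δgcn4, Δgcn2, and WT, but Δgcn4, Δgcn2, and WT did not differ from the next strain beyond the test. For PMT5, the steps between Δire1 and Δgcn4 and between Δgcn4 and Δgcn2 did not pass, whereas the step between Δgcn2 and WT did. PMT1 was lowest in Δgcn4, followed by Δire1, Δgcn2, and WT, with the step up to WT alone passing, and PMT2 was lowest in Δire1, followed by Δgcn2 and Δgcn4 at about the same level, and then WT. For PMT4 the 4 means spanned 0.44 and for PMT6 0.14, and no neighbors in their order differed.

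Differences between genes on the same array do not depend on the centering of that array. They are given as a description, for pairs of genes chosen after their values were seen. The share of other gene pairs that separate between strains in the same way was not computed. PMT3 minus PMT1 was 0.33 to 0.62 on the Δire1 arrays, 1.63 to 1.96 on the Δgcn4 arrays, and 1.12 to 2.09 on the Δgcn2 arrays, against 0.54 to 0.98 on the WT arrays. The distance between these genes was thus larger on every Δgcn4 and Δgcn2 array than on any WT array. PMT3 minus PMT2 was 0.74 to 0.93 in Δire1, 0.77 to 1.51 in Δgcn4, and 1.04 to 2.00 in Δgcn2, against 0.52 to 0.73 in WT. PMT5 minus PMT1 was −0.29 to 0.18 in Δire1, 0.45 to 1.01 in Δgcn4, and 0.51 to 0.79 in Δgcn2, against −0.33 to 0.02 in WT. PMT2 minus PMT1 was −0.60 to −0.24 in Δire1, 0.44 to 0.99 in Δgcn4, and 0.08 to 0.16 in Δgcn2, against −0.19 to 0.33 in WT. PMT1 and PMT5 are neighboring genes on chromosome IV in the R64 assembly, and their ratios were close to each other in WT and Δire1 and apart in both gcn strains.

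**Figure D3:**
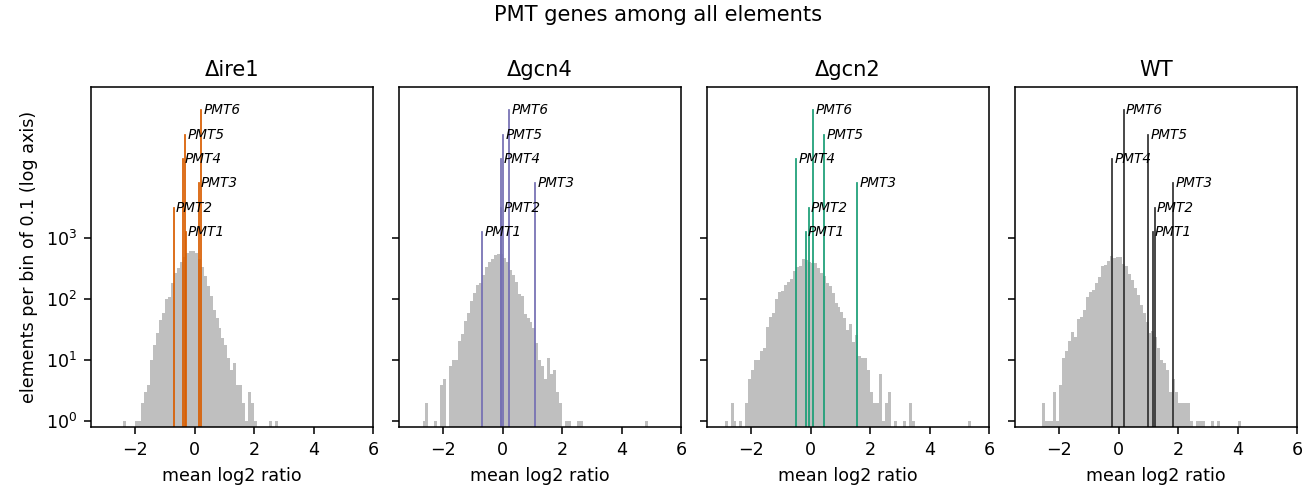
Distribution of the mean response to DTT, as log2 of treated over untreated (horizontal axis), over the 6024 elements in each strain, as the number of elements per bin on a log axis (vertical axis), with a line for each PMT gene whose height only keeps the names apart. In WT, PMT1, PMT2, PMT3, and PMT5 lie in the upper tail, in Δire1 no PMT gene does, and in Δgcn4 and Δgcn2 PMT3 stands apart from the other 5 genes.

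To see which genes had profiles like those of the PMT genes, the root mean square difference in log2 ratio over the 12 arrays was computed between each PMT gene and every other element with a gene symbol. This likeness is a description, and a gene with a flat profile has many close matches. The matches were picked on these same 12 arrays, so that strain means near those of the PMT gene follow from the picking. PMT2 and PMT5 had the same nearest element, PMI40, the mannose-6-phosphate isomerase that starts the route to the mannose donor, at 0.278 and 0.246. Next for PMT5 came KTR1, a mannosyltransferase of the Golgi, at 0.263 and SHH4 at 0.277. Next for PMT2 came HLR1 at 0.339 and SEC61, the channel of the ER translocon, at 0.34. The nearest to PMT1 were SEC26, a subunit of the COPI coat, at 0.247, YOL057W at 0.281, and KEG1, an ER protein of cell wall glucan synthesis, at 0.301. Like PMT1, these 3 genes had their lowest mean in Δgcn4, with values of −0.55, −0.43, and −0.74. The nearest to PMT3 were DFM1, a Derlin-like protein of the ER, at 0.308, SFB2, a coat protein of ER-derived vesicles, at 0.315, and MPD1, a member of the protein disulfide isomerase family, at 0.369. Those 3 genes had means of 0.89 to 1.02 in Δgcn4 and 1.25 to 1.43 in Δgcn2, against 1.58 to 1.94 in WT. PMT4 was nearest to VOA1 (0.126), FTR1 (0.137), and PRP19 (0.141), and PMT6 to CHL4 (0.119), SEC10 (0.138), and FET5 (0.14).

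Among themselves, PMT2 and PMT5 were closest, at 0.359, with 4 elements of the table closer to PMT2 than PMT5 was and 44 closer to PMT5 than PMT2 was. PMT1 and PMT2, the main pair of subunits, were 0.42 apart, and 14 elements were closer to PMT1 than PMT2 was and 11 closer to PMT2 than PMT1 was. PMT3 was the farthest from the rest, between 0.944 from PMT5 and 1.64 from PMT4. PMT4 and PMT6 were 0.551 apart. PMT7, a relative of the family outside the 6 genes, averaged 0.20 ± 0.11 in Δire1, −0.23 ± 0.29 in Δgcn4, and −0.10 ± 0.10 in Δgcn2, against 0.07 ± 0.23 in WT, and was not called in any strain or against WT in any comparison.

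The mannose used by the transferases comes from dolichyl phosphate mannose. Of 10 genes for the supply of this donor, 5 were higher and 1 was lower in WT, and in the deletion strains minus WT 7 were lower in Δire1, 4 in Δgcn4, and 3 in Δgcn2, where 1 was higher. The shares of all elements were 18.4% higher and 39% lower in WT, and 11.3%, 1.94%, and 6.24% lower in the same order of deletion strains minus WT, with 10.9% higher in Δgcn2. The median of these genes in Δire1 minus WT was −0.73, against 0.03 for all elements. In Δgcn4 minus WT it was 0.00, against 0.01. SEC59, the dolichol kinase, was at 1.37 in WT, and its differences from WT were −1.60 in Δire1, −1.06 in Δgcn4, and −0.97 in Δgcn2. NUS1, a subunit of the prenyltransferase that makes the dolichol chain, was at 1.46 in WT, with differences of −1.35, −0.79, and −0.72 in the same order of strains. PMI40 was at 1.02 in WT, with differences of −1.45, −0.88, and −0.92. All of these values passed the test, with adjusted p between 2.1e-08 and 0.0093. RER2, the catalytic partner of Nus1p, was at 0.38 in WT (adjusted p = 0.0036), differed by −0.83 in Δire1 (adjusted p = 0.00075), and had differences of 0.15 in Δgcn4 and 0.22 in Δgcn2 that did not pass (adjusted p = 0.65 and 0.30). DPM1, the synthase of the donor itself, was singled out after its values were seen. It had −1.88, −1.25, and −1.10 on the Δgcn4 arrays, against 0.07, 0.51, and 0.24 on the WT arrays, a difference of −1.69 (adjusted p = 0.0013) that ranked 6021 among the 6024 from the highest, near that of PMT1 at rank 6023.

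Other enzymes draw on the same donor. Of 7 such genes, for N-glycan assembly and for GPI anchors, 2 were higher in WT and 1 was lower in Δire1 minus WT, and none passed in Δgcn4 or Δgcn2 minus WT. With 18.4% of all elements higher in WT and 11.3% lower in Δire1 minus WT, these counts are near the shares over the table. ALG3, which adds the first donor-derived mannose to the N-glycan precursor, was at 1.11 in WT (adjusted p = 0.00031) and differed by −2.01 in Δire1 (adjusted p = 0.00028), but by 0.41 in Δgcn4 (adjusted p = 0.54) and 0.47 in Δgcn2 (adjusted p = 0.29). ALG12, another mannosyltransferase of that precursor, was at 0.38 in WT (adjusted p = 0.042). Of 6 genes for extension of the O-linked chain in the Golgi, KTR1 was higher in WT, at 0.93, and lower in each deletion strain, with differences from WT of −1.25 in Δire1, −0.82 in Δgcn4, and −0.75 in Δgcn2 (adjusted p = 0.00011, 0.010, and 0.0083). MNN1 was lower in WT, at −0.45, and higher in Δire1 minus WT, by 0.58 (adjusted p = 0.0071), and KRE2 was lower in WT, at −0.29 (adjusted p = 0.0081). No other gene of the 6 passed in these comparisons, so that 1 was higher and 2 were lower in WT, against 18.4% and 39% of all elements.

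Of 14 genes whose proteins are known to carry O-linked mannose, 12 were measured, and 7 of them were lower and 1 higher in WT, against 39% and 18.4% of all elements, the median being −0.31, against −0.15. With centered arrays, 4 were lower, against 28.4% of all elements, a count near that share. AGA2, a subunit of the a-agglutinin, was at −1.53 in WT (adjusted p = 2.5e-07), and the cell wall proteins PIR3 and HSP150 were at −0.57 and −0.55 (adjusted p = 0.00011 and 0.00018). MID2, a sensor of the cell wall, was at −0.35 (adjusted p = 0.0048). In the deletion strains minus WT, 1 of the 12 was higher in Δire1 (AGA2, by 0.61, adjusted p = 0.036) and none with centered arrays, none passed in Δgcn4, and 4 were higher and 1 lower in Δgcn2, against 10.9% and 6.24% of all elements. The higher ones in Δgcn2 were AXL2, by 1.00 (adjusted p = 0.0084), PIR3, by 0.66 (adjusted p = 0.0057), HSP150, by 0.52 (adjusted p = 0.019), and CIS3, by 0.46 (adjusted p = 0.045). CTS1 was the lower one, by −0.73 (adjusted p = 0.0058). AXL2 was also the gene of this list that was higher in WT, at 0.39 (adjusted p = 0.043).

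**Figure D4:**
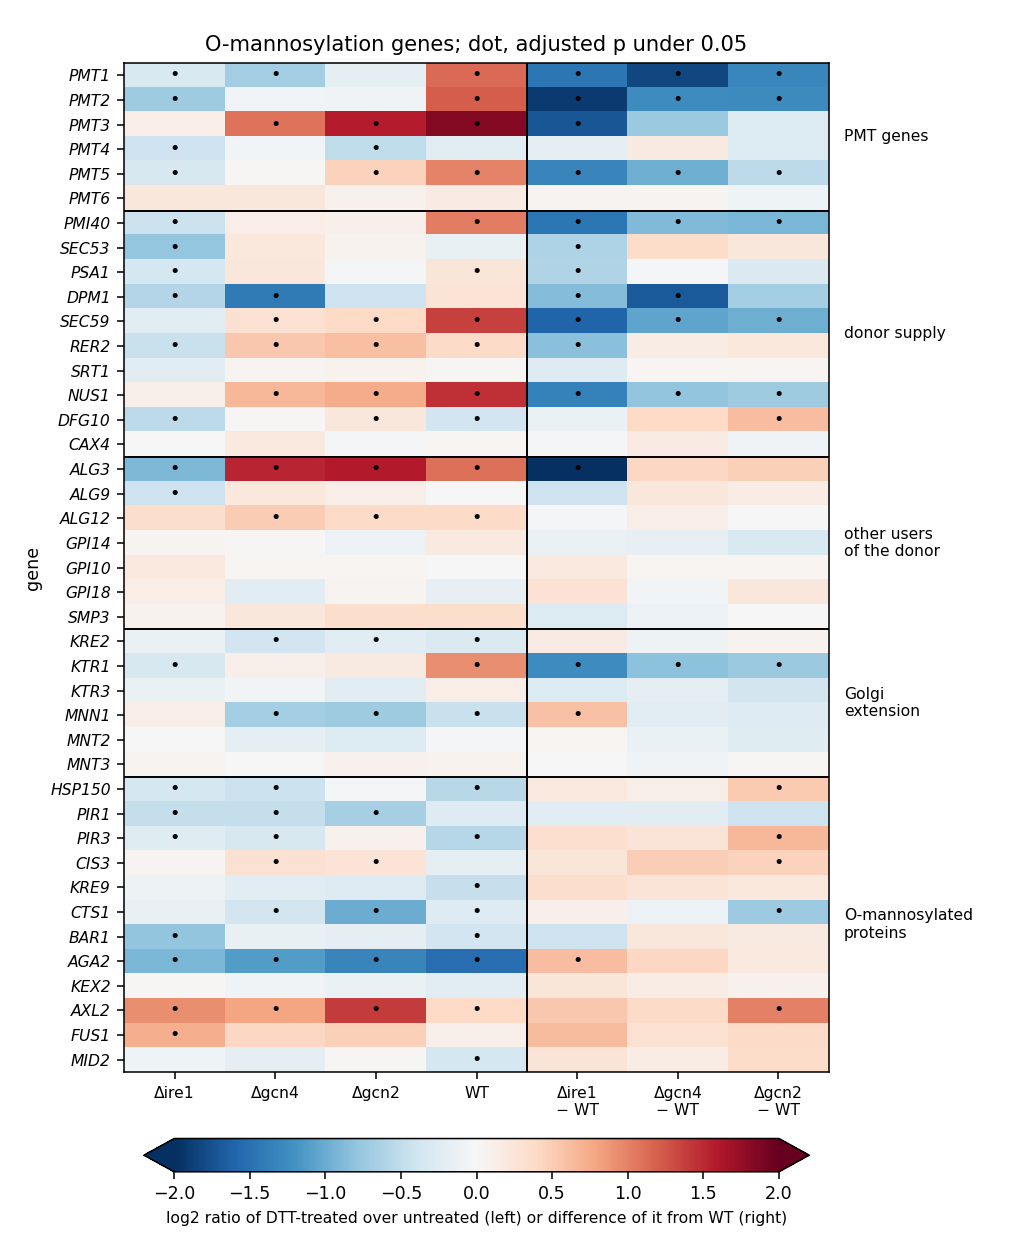
Mean response to DTT, as log2 of treated over untreated, in each strain (left 4 columns) and its difference from WT in each deletion strain (right 3 columns) for the PMT genes and the measured genes of the 4 lists (rows), on a color scale that saturates at −2 and 2, with a dot where the adjusted p was under 0.05. PMT1, PMT2, PMT5, PMI40, SEC59, NUS1, and KTR1 are higher in WT and lower in each deletion strain minus WT, and PMT4 and PMT6 pass in none of the comparisons with WT.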

How the data were processed

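The values are log2 ratios of DTT-treated over untreated cells that the authors deposited for 12 spotted arrays, with 3 arrays for each of 4 strains and no missing value among 6024 elements. The text of the methods used here names no dye orientation, background correction, or normalization, and the table holds no signals of the separate channels, so that dim spots could not be identified and precision is limited by the number of arrays. WT replicate 1 was numbered by elimination. Symbols, for 5432 elements, came from the platform annotation. All 12 arrays entered a linear model with a mean per strain (limma 3.58.1, R 4.3.3; 15.5 degrees of freedom after moderation), and p was adjusted by the method of Benjamini and Hochberg over all 6024 elements in each of 10 comparisons, with a threshold of 0.05. The fit was tested on simulated data with noise drawn independently for each array. Deviations shared between arrays were not part of that test.

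WT and Δgcn2 arrays of the same replicate number deviated together over elements, with correlations of 0.574 to 0.661. Deviations were taken from the strain mean and cancel out within a strain. The values for different numbers, at most −0.198, are therefore pushed down by the same-number ones and are no separate contrast. Same-number correlations were 0.0823 to 0.293 for Δgcn4 with WT and 0.0787 to 0.262 for Δgcn4 with Δgcn2. Different numbers there reached 0.299 and 0.247. In pairs with Δire1 the same-number values were at most 0.149. The pairing of WT and Δgcn2 comes from the data and shared numbers alone. Alternatives were centering, centering with scaling, array weights, the replicate block, only the arrays compared, joint adjustment of p, and leaving out each array. The genes and lists were chosen with earlier results of these data known. The genes named are the 6 PMT genes, PMT7, KAR2, ERO1, up to 4 genes per list with the lowest adjusted p, DPM1, which was added after its values were seen, and the 3 nearest elements by root mean square difference. AXL2, CIS3, and CTS1 were also added after their values were seen. No element named IRE1, GAS1, or WSC1 was used here. Promoter and protein sequences were not analysed here.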

Additional observations from a re-analysis of the deposited data

Results flagged for a closer look

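The response to DTT differed between strains in 15 of the 36 tests of a strain difference on the PMT genes, by the test of the difference itself. Those tests share arrays, so that they are not independent of each other and the count is no tally of separate results. In Δire1 minus WT, the differences in log2 ratio were −1.44 for PMT1, −1.92 for PMT2, −1.71 for PMT3, and −1.31 for PMT5. In Δgcn4 minus WT, they were −1.82 for PMT1, −1.26 for PMT2, and −0.97 for PMT5. In Δgcn2 minus WT, they were −1.31 for PMT1, −1.27 for PMT2, and −0.53 for PMT5. In Δire1 minus Δgcn4, they were −0.65 for PMT2 and −0.96 for PMT3. In Δire1 minus Δgcn2, they were −0.64 for PMT2, −1.44 for PMT3, and −0.78 for PMT5. The adjusted p of these differences, from limma with Benjamini-Hochberg adjustment, ran from 1.9e-06 to 0.033. Of all elements, 22.2% were called in either direction in Δire1 minus WT, 2.81% in Δgcn4 minus WT, and 17.1% in Δgcn2 minus WT. Between the deletion strains, the shares were 26% in Δire1 minus Δgcn4, 36.8% in Δire1 minus Δgcn2, and 6.32% in Δgcn4 minus Δgcn2.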

How the results depend on the processing

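Over the 60 tests on the PMT genes, 28 passed the threshold, and 1116 values were recomputed under the alternatives, of which 1068 kept their side of the threshold, 19 lost it, and 29 gained it. Of all elements, 47.8% to 63.1% passed in the response of a single strain and 2.81% to 36.8% in a strain difference. No value that passed changed direction, while PMT3 in Δgcn2 minus WT, which did not pass, ranged from −0.49 to 0.08 with single arrays left out. The number of PMT genes called in Δire1 changed to 2 of 6 with only the arrays of that strain, against 4, and lay between 1 and 4 with single arrays left out. With only the arrays of that strain, 9.76% of all elements were called higher and 28.7% lower, against 12.2% and 35.6%. In Δgcn4 minus Δgcn2, where none was called, array weights gave 1, the replicate block 2, joint adjustment of p 3, and the replicate block on the arrays compared 3, and leaving out single arrays gave 0 to 1. Apart from single arrays left out, those fits called in the same order 3.98%, 2.76%, 4.6%, and 4.91% of all elements higher. Lower were 8.98%, 6.64%, 9.74%, and 10.7%, against 1.88% higher and 4.45% lower with none of these changes. In Δire1 minus Δgcn4, array weights gave 4, against 2, with 18.6% of all elements called higher and 17.7% lower, against 13.2% and 12.8%. In Δgcn2 minus WT, the replicate block on the arrays compared gave 5, against 3. There, 30.5% of all elements were called higher and 19.8% lower, against 10.9% and 6.24%. The causes were not tested. With the block on all 12 arrays, PMT3 in Δgcn4 minus WT (adjusted p = 0.042), PMT1 and PMT5 in Δgcn4 minus Δgcn2 (adjusted p = 0.034 and 0.040), and PMT5 in Δire1 minus Δgcn4 (adjusted p = 0.049) were gained, and no other PMT call changed. Except for WT and Δgcn2, same-number correlations between strains were at most 0.293, and whether those arrays share more than a number is not known. Centering changed some counts of the lists, such as the donor supply genes called higher in Δgcn4, with 7 against 3. The share of all elements called higher in Δgcn4 was 25.6% with centering, against 15.8%. The search of promoters for motifs was not run. With 3 arrays per strain, the 95% confidence interval of a strain difference extended 0.30 to 0.37 to either side for 5 genes and 0.55 for PMT3.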

Other observations

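The deposited table opens with 139 elements in 6 runs, sorted by systematic name within a run, before the rest of the table, and the files do not say what the runs are. PMT1 lies in the first run of 11 elements, which also holds DPM1. PMT3 lies in the third, of 35 elements. PMT2 and PMT5 lie in the fifth, of 76 elements, which also holds PMI40, NUS1, SEC59, KTR1, and ERO1. PMT4, PMT6, ALG3, RER2, and KAR2 come later in the table. The 4 PMT genes in the runs are those that were higher in WT, where 18.4% of all elements were called higher. PMI40, NUS1, SEC59, KTR1, and ERO1, in the fifth run, were also higher in WT. DPM1, in the first run, was not called in WT (0.28, adjusted p = 0.20). Outside the runs, ALG3, RER2, and KAR2 were higher in WT, and most of the listed genes were not. In Δgcn4 minus WT, PMT1, PMT2, PMT5, DPM1, PMI40, NUS1, SEC59, KTR1, and ERO1 were lower, and all of them lie in the runs. PMT3 lies there too and was not called. No PMT gene or listed gene outside the runs, nor KAR2, was lower in that comparison, against 1.94% of all elements. The share of run elements called higher in WT was not computed, and a link between position and response was not tested.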
